A study of Mus musculus with 4 samples.

Results

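Collagen genes were picked out of a table of 12799 mouse genes by their symbols, as every row named Col, digits, a, digits, which gave 33 genes. They were selected on their symbols, among rows whose signal had passed the authors' own filter on low genes, with earlier results of these data known. The libraries came from bone marrow-derived monocytes of 12-week-old female mice, grown in M-CSF at 30 ng/mL and, for 3 days, in RANKL at 50 ng/mL, which drives these cells toward the bone-resorbing osteoclast. For every library the labels give day 2 for the nonadherent cells. Knockout cells were Csf1r-iCre;Piezo1fl/fl (n = 2) and control cells were Piezo1fl/fl without the recombinase (n = 2), so that both groups carried the floxed alleles. The Csf1r promoter restricts the recombinase to the monocyte lineage and related cells, and since the controls lacked it, effects of the transgene and of Piezo1 loss cannot be told apart. Each level is given in CPM, the reads of a gene scaled by the authors to the depth of its library. Piezo1, a stretch-gated cation channel, was at 61.0 and 56.2 CPM in the knockouts, against 430.1 and 384 CPM in the controls (log2 fold change −2.79, SE 0.10, limma adjusted p = 8.23e-05), in the direction of the labels.

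Collagens are proteins, most of them secreted and a few transmembrane, whose chains wind around each other in a helix built on repeats with glycine at every turn. Fibrillar collagens assemble into the banded fibres of bone, skin and tendon, type IV forms the sheet of basement membranes, the short-chain types VIII and X form hexagonal networks, and FACIT collagens sit on fibre surfaces. In bone, osteoblasts and other stromal cells deposit type I collagen and osteoclasts dissolve it with the protease cathepsin K. The labelled cell type was plain in the data, since cathepsin K (Ctsk) was at 23577 and 26656 CPM in the knockouts, against 23060 and 23825 CPM in the controls, while all collagen genes together took 0.247% and 0.211% of the signal in the knockouts and 0.311% and 0.367% in the controls.

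The collagen transcripts that were lower in the knockouts were mainly those of types I, III, V, VIII and XII. Summed over the 33 genes, the collagen signal was 2449 and 2164 CPM in the knockouts, against 3091 and 3624 CPM in the controls, so that the knockout mean was 68.7% of the control mean. In bulk RNA, fewer cells that make a transcript and less of it per cell cannot be told apart. With limma over 11781 tested genes, 1 of 30 tested collagen genes, Col8a1, fell at an adjusted p under 0.05 and 0 rose, where 0.119% of all tested genes fell and 0.0424% rose. At an unadjusted p under 0.05, 11 collagen genes were lower and 0 higher, where 3.55% of all tested genes were lower and 1.35% higher. Without overlap between the genotypes, 13 of the 33 genes were lower in both knockouts and 5 were higher (Col11a2, Col24a1, Col4a3, Col22a1 and Col15a1), where 15.9% and 16.2% of the whole table were. edgeR called Col8a1 alone and DESeq2 called 7 collagen genes, all lower, where these tools called 0.119% and 0.528% of all genes they tested lower (and 0.0424% and 0.0768% higher). The collagen count depended on the libraries used: it was 0 without control 1 or without control 2, 8 without knockout 1 and 3 without knockout 2.

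**Figure D1:**
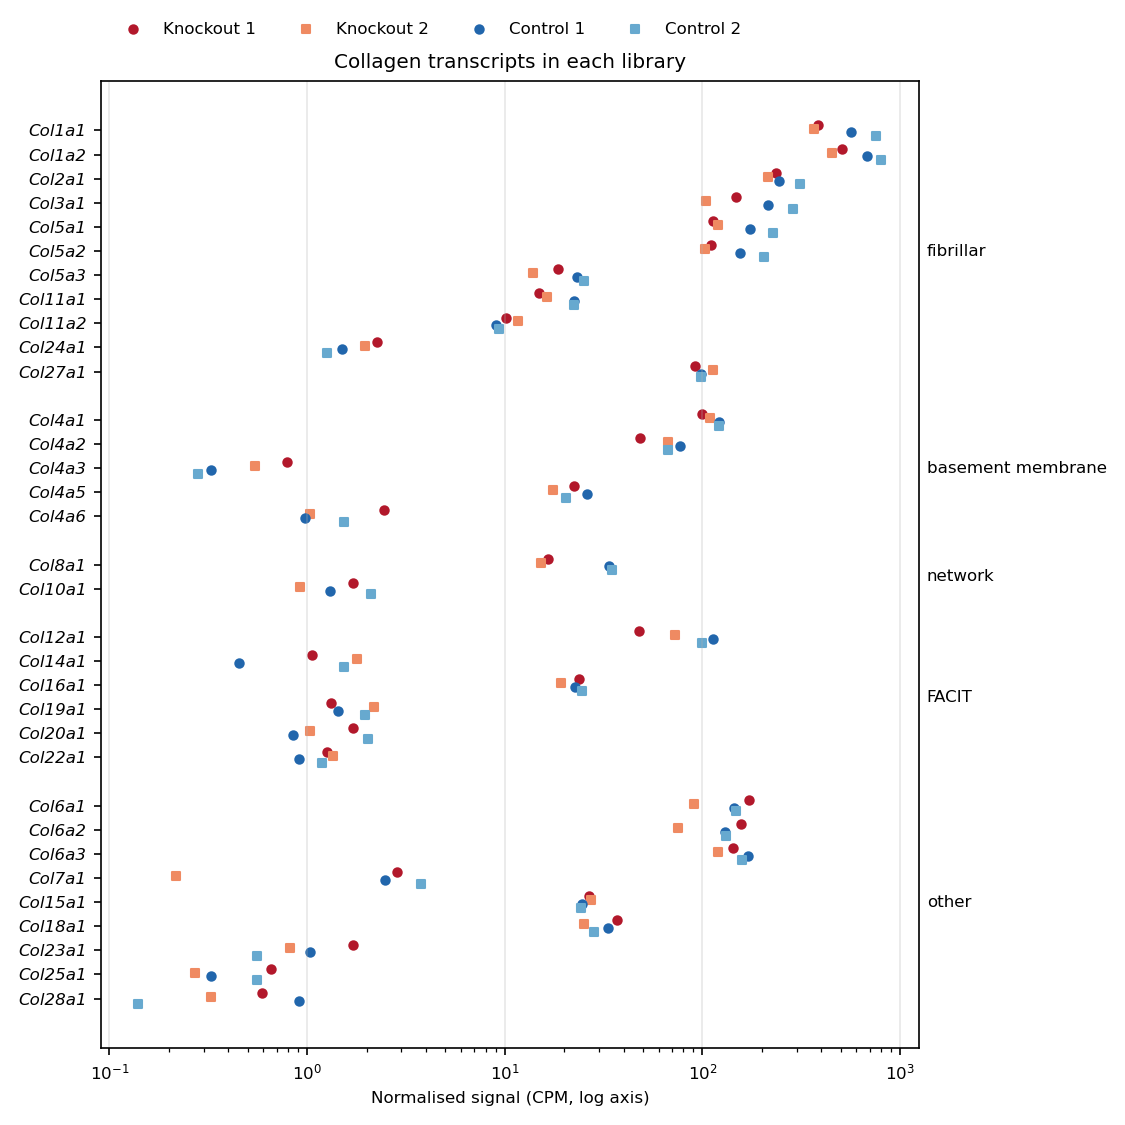
Normalised signal of the 33 collagen genes in each library (CPM, logarithmic axis), arranged by assembly type, with knockout libraries in red and orange and control libraries in blue. The points of Col1a1, Col3a1, Col5a1, Col5a2, Col8a1 and Col12a1 separate by genotype, and Col6a1, Col6a2 and Col7a1 are low in knockout 2 alone.

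Among the network collagens, Col8a1 was the single member of the family that passed. It encodes a short chain of type VIII collagen, found in the matrix beneath vascular and corneal endothelium and in remodelling tissue. Col8a1 was at 16.6 and 15.3 CPM in the knockouts (251 and 281 reads), against 33.7 and 34.8 CPM in the controls (519 and 497 reads). Both knockouts lay below both controls, and within each genotype the libraries were close together. The knockout mean was 46.5% of the control mean, with a log2 fold change of −1.08 (SE 0.12, 95% interval −1.36 to −0.80, limma Benjamini-Hochberg adjusted p = 0.0236). The adjusted p was 0.0289 with edgeR and 5.01e-06 with DESeq2. It was 0.177 without control 1 and 0.286 without control 2, with log2 fold changes of −1.11 and −1.06. The gene (ENSMUSG00000068196.5, protein-coding) lies on the minus strand of chromosome 16, from 57624258 to 57754737 in GRCm38. Its partner chain Col8a2 is not among the genes analysed here. The other network member, Col10a1, the hypertrophic cartilage collagen, had 26 and 17 reads in the knockouts and 20 and 30 in the controls. These ranges overlapped, and the log2 fold change of −0.28 had an interval of −1.06 to 0.49.

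The upstream sequences of Col8a1, Col5a1 and Col3a1 are shown because these were the lowest-p member of the family, the lowest-p fibrillar member and the fibrillar member with the largest difference. Each is the 250 bases before the RefSeq start in GRCm38.p6, written 5′ to 3′ on the strand of the gene, with capitals at matches on either strand to the TATA box (TATAAA), the CCAAT box (CCAAT), the GC box (GGGCGG) and the site bound by TEAD factors, partners of YAP and TAZ (GGAATG).
Col8a1 at chr16:57754738-57754987, minus strand: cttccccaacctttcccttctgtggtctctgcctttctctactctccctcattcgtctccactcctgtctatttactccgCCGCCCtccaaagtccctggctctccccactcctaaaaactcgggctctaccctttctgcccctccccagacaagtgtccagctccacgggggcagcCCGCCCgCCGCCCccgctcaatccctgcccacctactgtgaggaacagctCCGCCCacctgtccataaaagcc
Col5a1 at chr2:27886175-27886424, plus strand: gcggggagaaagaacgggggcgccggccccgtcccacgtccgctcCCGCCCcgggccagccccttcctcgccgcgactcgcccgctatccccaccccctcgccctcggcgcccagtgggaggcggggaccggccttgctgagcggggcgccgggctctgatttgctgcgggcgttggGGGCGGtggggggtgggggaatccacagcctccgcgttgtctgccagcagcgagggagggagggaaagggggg
Col3a1 at chr1:45311288-45311537, plus strand: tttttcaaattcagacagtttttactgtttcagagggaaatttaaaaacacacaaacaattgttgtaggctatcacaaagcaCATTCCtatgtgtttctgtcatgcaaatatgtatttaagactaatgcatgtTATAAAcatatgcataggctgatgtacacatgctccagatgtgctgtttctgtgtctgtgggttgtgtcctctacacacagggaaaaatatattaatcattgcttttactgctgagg
The Col8a1 window had 4 GC boxes and none of the other motifs. The Col5a1 window, with a GC content of 76.4%, had 2 GC boxes, and the Col3a1 window, with 35.2%, had 1 match to TATAAA and 1 TEAD motif. Over all 32851 windows in the RefSeq table the median GC content was 52.4%. Of these windows, 32.7% held a GC box, 33.8% a CCAAT box, 12.4% a TATA box and 12.6% a TEAD motif. Windows were at hand for 26 of the 33 collagen genes, 28 windows in all, since Col6a2 and Col18a1 each had more than 1. Of the 28, 17 held a GC box, 10 a CCAAT box, 3 a TATA box and 4 a TEAD motif. These counts were not adjusted for GC content and no enrichment was tested. The 3 sequences thus had no motif in common. A match to these letters was counted anywhere in the window, so it describes the sequence and does not show binding or use as a promoter element.

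The fibrillar collagens held most of the family's signal, and within them the chains of types I, III and V were lower in every knockout library than in any control. All 11 fibrillar genes were in the table and tested, 0 passed with limma or edgeR, 7 were lower at an unadjusted p under 0.05, and DESeq2 called 5. Their median log2 fold change was −0.58, against −0.22 over the 33 collagen genes and 0.00 over all tested genes. Their summed signal was 1638 and 1514 CPM in the knockouts, against 2183 and 2751 CPM in the controls.

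Type I collagen, the main protein of bone matrix, is built from the chains of Col1a1 and Col1a2. Col1a1 was at 386 and 365 CPM in the knockouts, against 561 and 758 CPM in the controls. The knockouts lay below the controls, but control 2 was well above control 1. The log2 fold change was −0.80 (SE 0.15, interval −1.14 to −0.46, limma adjusted p = 0.178). Col1a2 was at 506 and 451 CPM in the knockouts, against 679 and 805 CPM in the controls (log2 fold change −0.63, SE 0.12, limma adjusted p = 0.196). Both genes passed with DESeq2 (adjusted p = 1.54e-05 and 0.000345), and with limma without knockout 1 (adjusted p = 0.0405 and 0.0445). With another library left out neither passed, with adjusted p from 0.0974 to 0.679 for Col1a1 and from 0.236 to 0.99973 for Col1a2. Per kilobase of merged exons, Col1a1 ranked first and Col1a2 second of the family, at 57.2 and 38.5 CPM per kb in the knockouts and 100.5 and 59.7 in the controls. The order turned round when the longest annotated transcript set the length, since the merged exons of Col1a2 span 12426 bases and its longest transcript 5348.

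Col3a1, the type III chain of loose and vascular connective tissue, had the largest difference among the fibrillar genes. It was at 148 and 104 CPM in the knockouts, against 215 and 289 CPM in the controls, with a knockout mean at 50.0% of the control mean. The groups did not overlap, and each genotype had a wide spread. The log2 fold change was −1.003 (SE 0.19, interval −1.44 to −0.56), which limma did not call (adjusted p = 0.193) and DESeq2 did (adjusted p = 1.13e-05). The limma adjusted p was 0.00237 without knockout 1, 0.0763 without knockout 2, 0.246 without control 1 and 0.866 without control 2.

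Type V collagen is a minor component of type I fibres that sets their diameter. Col5a1 was at 113 and 120.4 CPM in the knockouts, against 173 and 228 CPM in the controls (log2 fold change −0.77, SE 0.14, limma adjusted p = 0.159, or 0.0449 without knockout 2 and 0.061 to 0.658 with another library left out). Col5a2 was at 111 and 103 CPM in the knockouts, against 155 and 206 CPM in the controls (log2 fold change −0.74, SE 0.14, limma adjusted p = 0.192, or 0.0405 without knockout 1 and 0.103 to 0.679 with another library left out). Both main chains of type V were thus separated by genotype by a similar margin, and DESeq2 called both (adjusted p = 0.000101 and 0.000342). Col5a3, a chain of restricted distribution, was less abundant, at 18.6 and 13.8 CPM in the knockouts against 23.2 and 25.3 CPM in the controls (log2 fold change −0.58, limma adjusted p = 0.616, DESeq2 adjusted p = 0.629). Col5a2 lies 24.6 kb from Col3a1 on chromosome 1, the 2 genes facing each other tail to tail.

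The remaining fibrillar genes, which belong to types II, XI, XXIV and XXVII, spanned both directions. Col2a1, the main collagen of cartilage, was at 237 and 214 CPM in the knockouts, against 245 and 309.6 CPM in the controls. The highest knockout was within 8 CPM of the lowest control, and the log2 fold change of −0.29 had an interval of −0.59 to 0.01. Col2a1 ranked 4 in the family per kilobase, yet cartilage markers were nearly missing: of 7 chondrocyte genes, Acan, Matn1, Matn3, Hapln1 and Chad are not among the genes analysed here, and Sox9 and Comp summed to at most 1.75 CPM in any library. Col11a1, which copolymerises with type II, was at 14.9 and 16.4 CPM in the knockouts, against 22.5 and 22.3 CPM in the controls (log2 fold change −0.51, unadjusted p = 0.00462 and adjusted p = 0.458 in limma). Its partner Col11a2 was at 10.1 and 11.6 CPM in the knockouts, against 9.03 and 9.38 CPM in the controls, the opposite order, with an interval of −0.14 to 0.59 on the log2 scale. Col27a1 overlapped (log2 fold change 0.05), and Col24a1 was at 2.24 and 1.96 CPM in the knockouts, against 1.49 and 1.26 CPM in the controls. When the fibrillar genes were divided after their values were seen, the 6 genes of types I, III and V summed to 59.3% of the control mean in the knockouts and the other 5 to 87.2%.

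**Figure D2:**
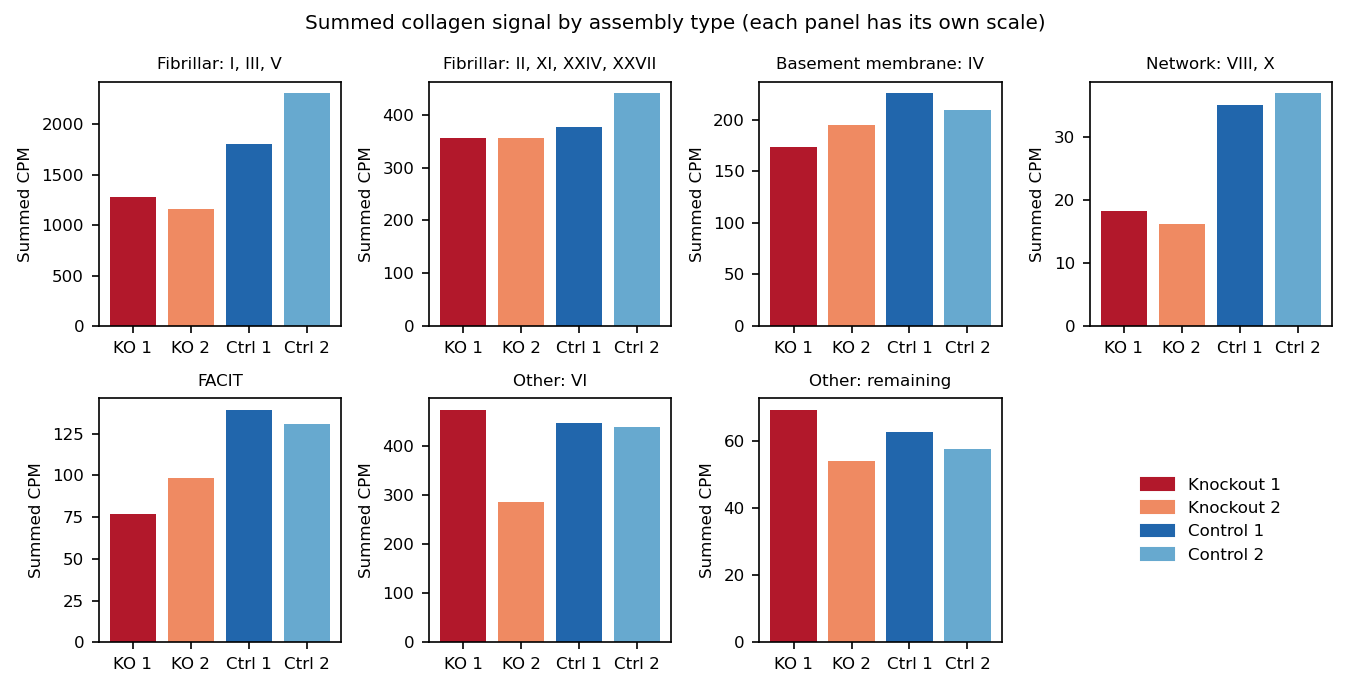
Summed CPM of the collagen genes of each assembly type in the 4 libraries, 1 bar per library, each panel on its own scale from 0. Types I, III and V stood at 1282 and 1158 CPM in the knockouts, against 1807 and 2310 CPM in the controls, and type VI was low in knockout 2 alone, at 286 CPM.

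The basement membrane collagens differed less. Col4a1 and Col4a2, the ubiquitous chains of type IV, start 22 bases inside one another on opposite strands of chromosome 8 and share a promoter region. Col4a1 was at 99.8 and 109 CPM in the knockouts, against 121 and 121 CPM in the controls (log2 fold change −0.22, interval −0.43 to −0.002, unadjusted p = 0.0484 in limma). Col4a2 was at 48.0 and 66.9 CPM in the knockouts, against 77.1 and 67.1 CPM in the controls, so that knockout 2 and control 2 differed by less than 1 CPM, with an interval of −0.72 to 0.03. Col4a5, a chain of kidney and other specialised basement membranes, overlapped between genotypes. Col4a6 had 15 to 37 reads per library, and Col4a3 had 12 and 10 reads in the knockouts, against 5 and 4 in the controls, too few to be tested. The median log2 fold change of the 5 type IV genes was −0.21, and their sum was 173.5 and 195 CPM in the knockouts, against 226 and 209.9 CPM in the controls.

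Among FACIT collagens, Col12a1 stood apart from a set of low genes. It encodes type XII collagen, which binds type I fibres and is abundant in tendon and ligament. Col12a1 was at 47.7 and 72.8 CPM in the knockouts, against 113 and 99.3 CPM in the controls. The groups did not overlap, with knockout 1 the lowest library. The log2 fold change was −0.84 (SE 0.19, interval −1.27 to −0.41, limma adjusted p = 0.312), and the adjusted p was 0.0027 with DESeq2. With limma it was 0.00172 without knockout 2, 0.128 without knockout 1, where the log2 fold change was −0.54, 0.99999 without control 1 and 0.801 without control 2. Col16a1, a FACIT of skin and cartilage, was at 23.8 and 19.2 CPM in the knockouts and at 22.7 and 24.7 CPM in the controls, which overlapped. Col14a1, Col19a1, Col20a1 and Col22a1 stood between 0.455 and 2.17 CPM, with log2 fold changes from −0.001 to 0.44 and every interval across 0. The FACIT median over the 6 genes was 0.01.

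**Figure D3:**
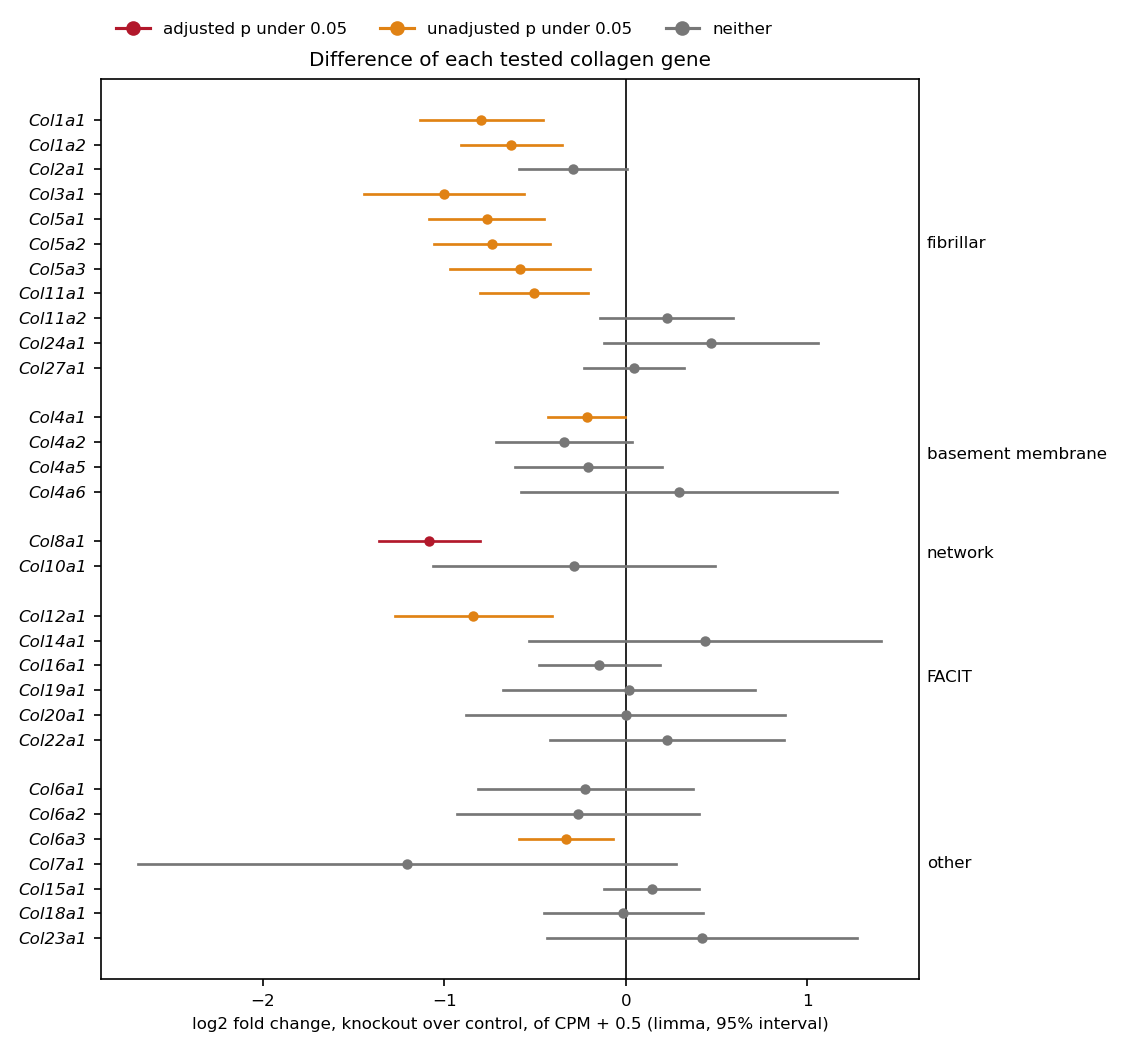
Log2 fold change of each of the 30 tested collagen genes, knockout over control, on the log2(CPM + 0.5) scale, as points with 95% limma intervals. Col8a1 (red) passed after adjustment over all genes, 10 others (orange) had an unadjusted p under 0.05, and all 11 lie left of 0.

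Type VI collagen forms beaded filaments around cells from the chains of Col6a1, Col6a2 and Col6a3, and its chains did not share 1 pattern. Col6a1 was at 173 and 90.7 CPM in the knockouts, against 145 and 148 CPM in the controls. Col6a2 was at 157 and 75.3 CPM in the knockouts, against 130.0 and 131 CPM in the controls. Knockout 1 was therefore above and knockout 2 below both controls for both chains, which lie 85.2 kb apart on chromosome 10. The 95% Poisson intervals of Col6a1, which cover counting error only, ran between 166 and 179 CPM in knockout 1, above the 86.4 to 95.1 CPM of knockout 2. Without knockout 1 both chains were called lower (limma adjusted p = 0.0221 and 0.00996), without knockout 2 neither was (adjusted p = 0.872 and 0.859), and with all libraries neither was (adjusted p = 0.99975 each, log2 intervals −0.81 to 0.37 and −0.93 to 0.41). Col6a3, on chromosome 1, differed from that pattern, at 143 and 119.8 CPM in the knockouts against 171 and 159 CPM in the controls (log2 fold change −0.33, unadjusted p = 0.0198, adjusted p = 0.864).

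Of the other collagens, the anchoring fibril gene Col7a1 had 43 and 4 reads in the knockouts, against 38 and 54 in the controls. Knockout 2 was low alone, at 0.217 CPM with a Poisson interval of 0.0592 to 0.557 CPM, and the log2 fold change of −1.20 had an interval of −2.68 to 0.28. Col15a1 and Col18a1, the multiplexins of basement membrane zones, whose fragments include endostatin, showed little difference. Col15a1 was at 26.5 and 27.4 CPM in the knockouts, against 24.5 and 24.3 CPM in the controls (log2 fold change 0.14, interval −0.12 to 0.41), and Col18a1 overlapped (−0.01, interval −0.45 to 0.42). Col23a1, Col25a1 and Col28a1 each stood under 2 CPM in all libraries, and the 9 genes outside the named assembly types had a median of −0.01. By abundance, all 13 genes that were lower without overlap were among the 21 with a mean of 5 CPM or more, where 13% of all such genes were lower without overlap, and the 12 scarcer ones had a median of 0.12 on the log2 fold change scale.

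Levels of partner chains were set against each other in each library. The ratio of Col1a1 to Col1a2, each per kilobase of merged exons, was 1.44 and 1.53 in the knockouts and 1.56 and 1.78 in the controls. That of Col5a1 to Col5a2 was 1.15 and 1.32 in the knockouts and 1.26 and 1.25 in the controls. For Col6a1 over Col6a2 it was 2.09 and 2.29 in the knockouts and 2.12 and 2.14 in the controls, although the level of both chains differed 1.90-fold and 2.09-fold between the knockouts. Col6a3 did not follow, with a ratio to Col6a1 of 0.304 and 0.484 in the knockouts and 0.432 and 0.394 in the controls. These ratios were not tested, and their absolute size depends on the length used.

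**Figure D4:**
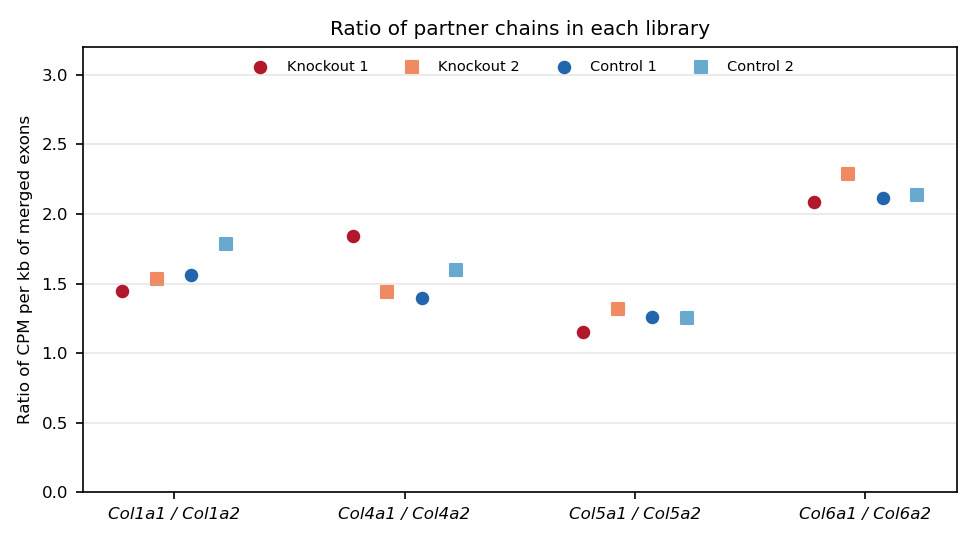
Ratio of the levels of partner chains in each library, as CPM per kb of merged exons, 1 point per library. For Col4a1 over Col4a2, Col5a1 over Col5a2 and Col6a1 over Col6a2 the genotypes overlap, and for Col1a1 over Col1a2 the knockouts (1.44 and 1.53) lie just below the controls (1.56 and 1.78).

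Genes that make, bind or degrade collagen were described from lists, beside a median log2 fold change of 0.00 over all tested genes, of which limma called 0.119% lower, 3.55% were lower and 1.35% higher at an unadjusted p under 0.05, and DESeq2 called 0.528% lower. Of 32 tested genes of collagen biosynthesis and cross-linking, 0 passed with limma or edgeR, 14 were lower and 0 higher at an unadjusted p under 0.05, DESeq2 called 4 lower, and the median over the 33 in the table was −0.35. The lysyl oxidase Loxl3 was at 28.8 and 31.0 CPM in the knockouts, against 51.3 and 47.9 CPM in the controls (adjusted p = 0.0853 with limma and 0.00255 with DESeq2), and Adamts2, which trims the ends of procollagen, was at 18.6 and 16.7 CPM, against 27.6 and 29.7 CPM in the controls (adjusted p = 0.181). Of 18 tested collagen-binding matrix genes, 2 fell with limma, Ccn2 and Thbs1 (adjusted p = 0.0236 and 0.0284), 11 were lower and 0 higher at an unadjusted p under 0.05, DESeq2 called 9 lower and 0 higher, and the median over the 19 in the table was −0.52. Fibronectin (Fn1), on which collagen fibres assemble, was at 771 and 796 CPM in the knockouts, against 1621 and 1263 CPM in the controls (adjusted p = 0.111 with limma and 5.08e-08 with DESeq2). Of 18 regulators of collagen transcription, 2 fell with limma, among them Ccn2 again, 5 were lower and 0 higher at an unadjusted p under 0.05, DESeq2 called 3 lower, and the median over the list was −0.13.

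Receptors and proteases of collagen showed no such difference by median, though some receptor genes were lower. Of 18 tested receptors and uptake genes, 0 passed with limma, edgeR or DESeq2, and the median over the 19 in the table was −0.04. At an unadjusted limma p under 0.05, 4 were lower and 0 higher, where 3.55% and 1.35% of all tested genes were. The lowest p was that of Mrc2, a receptor that takes up collagen fragments, at 17.6 and 15.4 CPM in the knockouts and 24.5 and 26.8 CPM in the controls (adjusted p = 0.29). Of 12 collagen-cleaving genes, 0 passed with these tools, 0 had an unadjusted p under 0.05, and the median was −0.02.

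**Figure D5:**
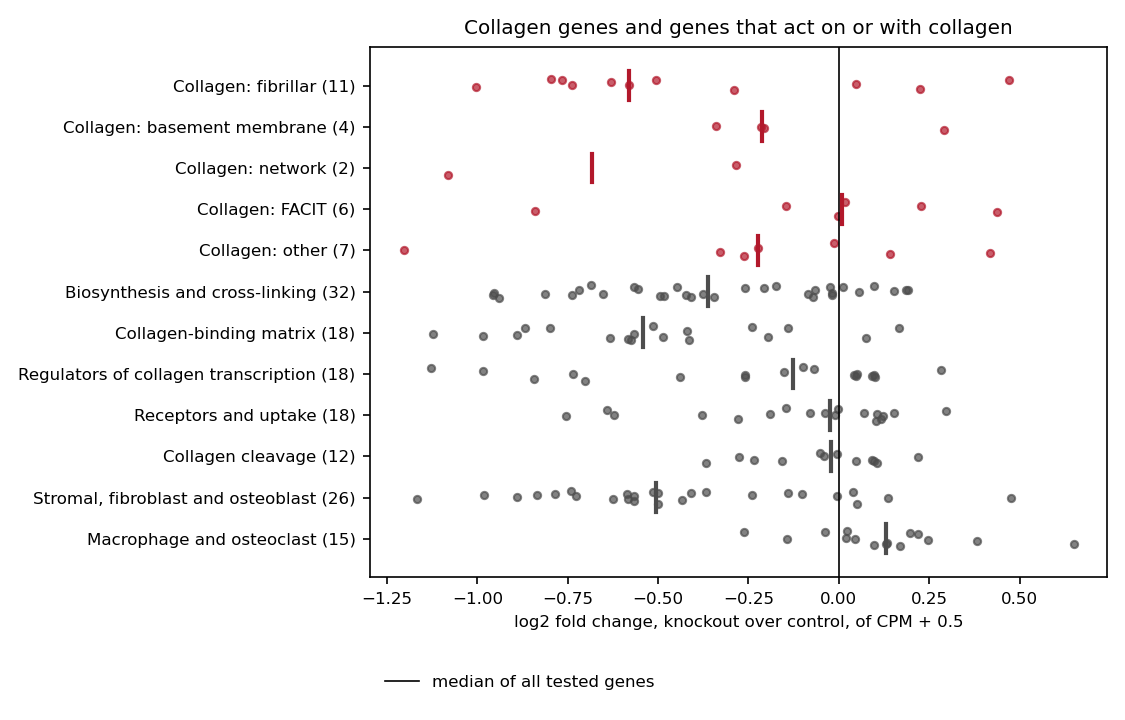
Log2 fold change, knockout over control, of tested collagen genes (red) and of tested genes of related lists (grey), 1 point per gene, with a bar at each median and the number of genes in brackets. Among sets of more than 2 genes the medians of fibrillar collagens (−0.58), collagen-binding matrix genes (−0.54) and stromal markers (−0.51) lie furthest left, and that of macrophage and osteoclast genes (0.13) lies right of 0. The matrix and stromal lists share Sparc, Bgn, Postn, Dcn and Lum, so their medians are not independent.

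Many markers of stromal cells were lower in the same knockout libraries, and others were not. Of 28 listed markers of stromal cells, fibroblasts and osteoblasts other than collagens, 26 were in the table, 1, Fbn1, fell with limma (adjusted p = 0.0357), 14 were lower and 1 higher at an unadjusted p under 0.05, DESeq2 called 9 lower and 0 higher, and the median was −0.51. Over all tested genes these shares were 0.119% with limma, 3.55% and 1.35% at an unadjusted p under 0.05, and 0.528% with DESeq2. Their summed level was 938 and 947 CPM in the knockouts, against 1268 and 1449 CPM in the controls. Among the defining markers Thy1 is not among the genes analysed here and none of the other 5 was at 0. Prrx1 was at 28.4 and 27.6 CPM in the knockouts, against 39.4 and 40.9 CPM in the controls, and Pdgfrb was at 18.4 and 17.1 CPM, against 23.8 and 26.8 CPM in the controls (adjusted p = 0.264 and 0.478). Pdgfra, Dcn and Lum, each under 8 CPM, overlapped between genotypes. The median log2 fold change of the 5 defining markers was −0.24, and 0 passed with limma, edgeR or DESeq2. In the wider list the marker that was higher was Igfbp4 (log2 fold change 0.48). Lower ones included the contractile genes Tagln, Cald1, Cnn1, Myl9 and Acta2 (log2 fold changes −0.62 to −1.17). The osteoblast genes Runx2, Sp7 and Ibsp had log2 fold changes of −0.41, −0.50 and −0.59, with unadjusted limma p from 0.058 to 0.078. Cxcl12, Alpl and Lepr had log2 fold changes of 0.04, 0.05 and 0.14. The part of stromal cells in the collagen difference was not tested. Of 10 endothelial markers, 3 were in the table and summed to 3.32 to 5.04 CPM per library, and none of the 15 macrophage and osteoclast markers passed with limma, edgeR or DESeq2, with 1 higher at an unadjusted p under 0.05. The 3 platelet markers in the table summed to 11.4 and 7.77 CPM in the knockouts, against 7.08 and 8.26 CPM in the controls.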

How the data were processed

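The authors deposited 1 table of normalised signal per gene, and per the submitters' processing notes the tools were STAR, featureCounts from Subread and edgeR on mm10 (GRCm38), with no versions. In each deposited signal column 100% of values were whole multiples of the smallest within 0.001 reads, and edgeR's TMM-scaled CPM of these reads matched the signal within 4.91e-11, so the values are CPM. Recovered totals were 14997205 and 18897927 reads in the knockouts and 15320308 and 14122118 in the controls. Per the labels, poly(A) RNA was sequenced as paired reads of 45 bases in a single batch. For the authors' filter, annotation and strand setting there is no source here, so overlapping genes can share reads. Every pair of libraries differed beyond sampling noise in a chi-square test of reads. The chi-square per degree of freedom was 22.4 between the knockouts and 11.1 between the controls. Across genotypes it ranged from 12.0 to 21.0. This measure rises with read depth, and knockout 2 was the deepest library, so these values do not rank the pairs by how much they differed. The 2 libraries of a genotype are biological replicates per the labels.

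limma with an intensity trend was fitted to log2(CPM + 0.5) of genes that reached 1 CPM in 2 or more libraries, with genotype alone, 2-sided, adjusted over all of them, and fold changes on this scale understate those of low genes. The smallest p of an exact 2-sided permutation test of 2 against 2 libraries is 0.333. The design had planned for CPM, and the unit was recorded as signal because the column of knockout 2 sums to 1027290 CPM, which left the test as planned. Members and lists were chosen with earlier results of these data known. Described gene by gene were collagen genes with an unadjusted p under 0.05, the highest 3 per kilobase of each assembly type and both chains of 4 trimers, and up to 4 of each list by p. Some others are named, chosen after their values were seen. A list gene that enters the counts is not reported here. Lengths and positions came from GENCODE M21 (12704 of the 12799 symbols found) and upstream sequences from RefSeq. The fit was tested on simulated reads, in which genes of a similar level shared the same variance and no library was made to stand out. There it recovered 43.1% of 1.5-fold changes, 86.4% of 2-fold changes and 100% of 4-fold changes. Of 11457 unchanged genes, 6 were called. Recovery in the real libraries, where variance also differs between genes of a similar level, was not measured. Software was edgeR 4.0.16, limma 3.58.1 and DESeq2 1.42.0 in R 4.3.3, and pandas 2.3.3, NumPy 2.4.6, SciPy 1.17.1 and matplotlib 3.10.9 in Python 3.11.15.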

Additional observations from a re-analysis of the deposited data

How the results depend on the processing

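The count of collagen genes called lower was 1 with the main settings. It was 7 with DESeq2, 0 without an intensity trend and 6 with the replicate block, and 0 to 8 with 1 library left out, where the genotype with a lone library was assumed to vary like the other. The counts over all genes, 14 lower and 5 higher, became 55 and 8 with DESeq2, 2 and 2 without an intensity trend, 71 and 18 with the replicate block, and 4 to 60 and 2 to 16 with 1 library left out. Under other pseudocounts, filters and scalings, with a robust prior and with edgeR, these counts stayed within 1.5 times. The collagen count higher was 0 under every alternative run. The cause of these differences was not tested. Same-numbered libraries did not deviate together over all tested genes (correlation −0.0016). One value over all genes cannot show whether the numbers pair the samples for part of the genes, so pairing was not settled. The median log2 fold change of the tested collagen genes, −0.24, ranged from −0.10 to −0.37 with 1 library left out and from −0.22 to −0.33 otherwise. Of 283 values of named collagen genes under the alternatives, 276 kept their sign, 19 newly passed and 3, all of Col8a1, no longer passed, among them that without an intensity trend (adjusted p = 0.162). Genes with few reads had wide intervals, such as −2.68 to 0.28 on the log2 scale for Col7a1.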
